A study of Gallus gallus with 12 samples.

Results

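Liver RNA of 3 female Luhua hens at sexual maturity (SM, day 133) was compared with that of 3 female Luhua hens in the juvenile period (JP, day 60). Luhua is a Chinese indigenous breed, no treatment of the birds is described, and each liver gave 1 library, so these 6 livers were 6 of the 12 in the series. The other 6 came from hens at peak laying (PL, day 220) and at broodiness (BP, day 400), and they are used here only to place the transcripts that differed between JP and SM. Liver tissue was sequenced in bulk, and the part of the organ sampled is not stated. In such bulk tissue fewer cells of a type and less RNA per cell cannot be told apart. Values are FPKM, fragment counts relative to transcript length and to the total of mapped fragments, which puts transcripts of different length on a common scale. A transcript was tested where 3 or more of the 6 livers exceeded an FPKM of 0.1, which held for 15662 of 18260 mRNAs and 4368 of 16930 long non-coding RNAs (lncRNAs). The gene reference used held no Ensembl identifiers, so the chicken transcripts could not be matched to gene symbols (0 of the mRNA identifiers matched). The mRNAs are therefore given by their Ensembl transcript identifier, and no function is attached to any of them. The tissue label could not be checked against marker genes.

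The avian liver is the main site of fatty acid synthesis in birds and exports its lipids as lipoproteins. With the onset of lay, oestrogen from the growing ovarian follicles induces hepatic transcription of the yolk precursors, which include the vitellogenins and the apolipoproteins of very low density lipoprotein, and these proteins travel in the blood to the oocytes. lncRNAs are longer transcripts that do not encode proteins, and in most tissues they are expressed at lower levels and in fewer samples than mRNAs.

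The livers of the stages differed in composition before any single transcript was considered. The 10 most abundant mRNAs of a liver held 36.7% ± 1.25 (SD, n = 3) of the summed mRNA FPKM at JP and 47.5% ± 2.53 (SD, n = 3) at SM, and between 34 and 44 mRNAs made up the first 50% of that sum at JP against between 11 and 19 at SM. The summed FPKM was 531242 ± 12637 at JP and 704441 ± 20585 at SM for mRNAs (SD, n = 3), and 3757 ± 136 and 7354 ± 256 for lncRNAs. More transcripts exceeded an FPKM of 0.1 at SM, namely 16006 ± 225 mRNAs and 5006 ± 359 lncRNAs against 14540 ± 156 and 3549 ± 14.1 at JP. The stages did not overlap in any of these measures, and each had p = 0.1 in a two-sided exact permutation test, the smallest that 3 against 3 livers can give. The most common ratio between low FPKM values of the same transcript was 1.32 to 1.57 in the SM livers relative to JP replicate 1. In the other JP livers it was 0.968 and 1.03. It would be the relative value of 1 fragment if such values were single fragments, which was not tested. Only 2.65% to 3.67% of the pairs of low values lay at that ratio. It was not set against the read numbers and mapped shares that the paper lists for each library. The share of reads that mapped also differed between the JP and SM libraries, and the part of these library differences in the results below was not tested. Stage and these properties of the libraries cannot be told apart.

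Most of the larger sum at SM lay in a handful of mRNAs. ENSGALT00000043486, ENSGALT00000045308 and ENSGALT00000042470 rose by 76040, 48926 and 38633 FPKM in the mean, and these 3 rises came to 94.5% of the difference between the stage sums of 173199. With ENSGALT00000028633 and ENSGALT00000042563, which were higher by 35601 and 13482 FPKM in the mean, the 5 greatest increases came to 123% of that difference, and the 3 greatest decreases took back part of it (-23.6%). FPKM is relative to all mapped fragments of a library, so all comparisons were repeated on median-ratio scaled values. In that scaling each liver is divided by the median, over mRNAs above 0 in all 6 livers, of the ratio to their geometric mean. The log2 of the factor was -0.21 ± 0.12 at JP and 0.21 ± 0.07 at SM (SD, n = 3).

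Among the mRNAs tested, 4597 (29.4%) were called, that is, they differed 1.5-fold or more with an adjusted p below 0.05 (limma on log2(FPKM + 1), Benjamini-Hochberg). Of these, 3785 (24.2% of the tested) were higher and 812 (5.18%) lower at SM. After median-ratio scaling 4106 were called (26.2%), of which 2019 (12.9%) were higher and 2087 (13.3%) lower. The share of calls that were higher at SM was thus 82.3% on the deposited values and 49.2% on the scaled values. The median difference over all tested mRNAs, SM minus JP on the log2(FPKM + 1) scale, moved from 0.24 to 0.03 with the scaling. All 2019 mRNAs higher on scaled values were also higher as deposited, while 1766 others were called higher only as deposited, and all 812 that were lower as deposited were lower on scaled values, with 1275 more called lower only there.

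**Figure D1:**
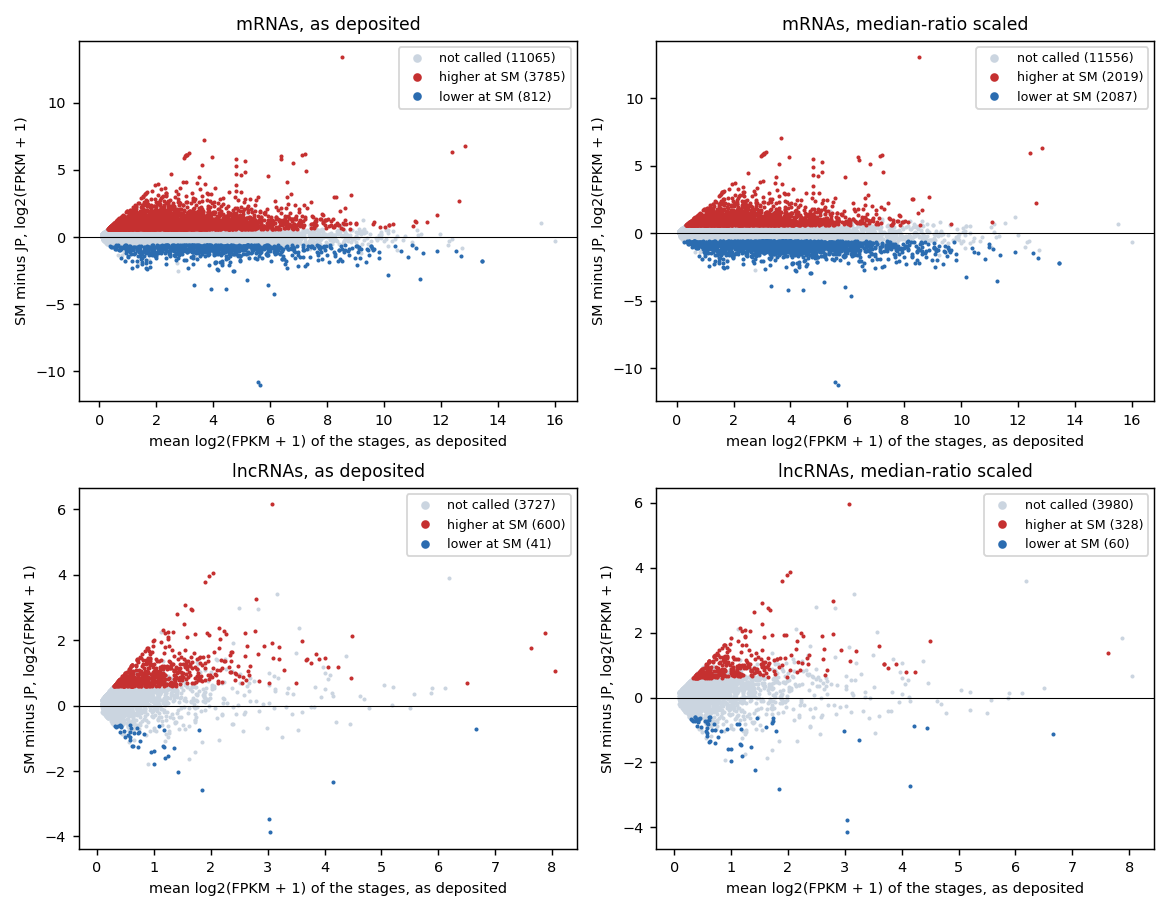
Difference between the stages (SM minus JP, log2(FPKM + 1)) against the mean level of the stages for mRNAs (top) and lncRNAs (bottom), as deposited (left) and after median-ratio scaling (right). The lncRNAs are scaled with the factors from mRNAs. Each point is a transcript, coloured where it was called. The mRNA calls number 3785 higher and 812 lower as deposited, and 2019 higher and 2087 lower after scaling. The most distant mRNAs keep their direction, with ENSGALT00000042470 at 13.41 and 13.05 and ENSGALT00000068633 at -11.02 and -11.24.

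The difference between the stages was not even over the range of expression. The scaling divides all mRNAs of a liver by the same factor. Its uneven effect below comes from the 1 added before the logarithm, which damps differences at low FPKM. At a mean FPKM above 1 and up to 3, the median mRNA differed by 0.44 as deposited and 0.18 scaled, and at a mean above 100 by 0.10 and -0.31 on the same log2(FPKM + 1) scale. On scaled values, 32.8% of the 539 mRNAs with a mean above 100 were called lower at SM, against 6.59% of the 2763 mRNAs with a mean between 1 and 3. The calls higher at SM went the other way, with 13.5% of the former and 21.6% of the latter. As deposited, the mRNAs with a mean above 100 were called higher more often than lower (25.8% and 21.2%), so their direction depends on the scale, while those between 1 and 3 were called higher more often on both (36.1% and 3.08% as deposited). With a mean up to 0.3 hardly any mRNA was called on scaled values (0 higher and 1 lower). At that level the added 1 leaves little room for a 1.5-fold difference. For lncRNAs the median difference as deposited was 0.12 at a mean FPKM up to 0.3 and 0.89 between 3 and 10. On values scaled with the factors from mRNAs it was 0.06 and 0.57. Factors from the lncRNAs themselves differ more between the stages (0.94 in log2, SM minus JP) than those from mRNAs (0.41). The classes were not computed with them, so the contrast of lncRNAs with mRNAs depends on the factor chosen.

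**Figure D2:**
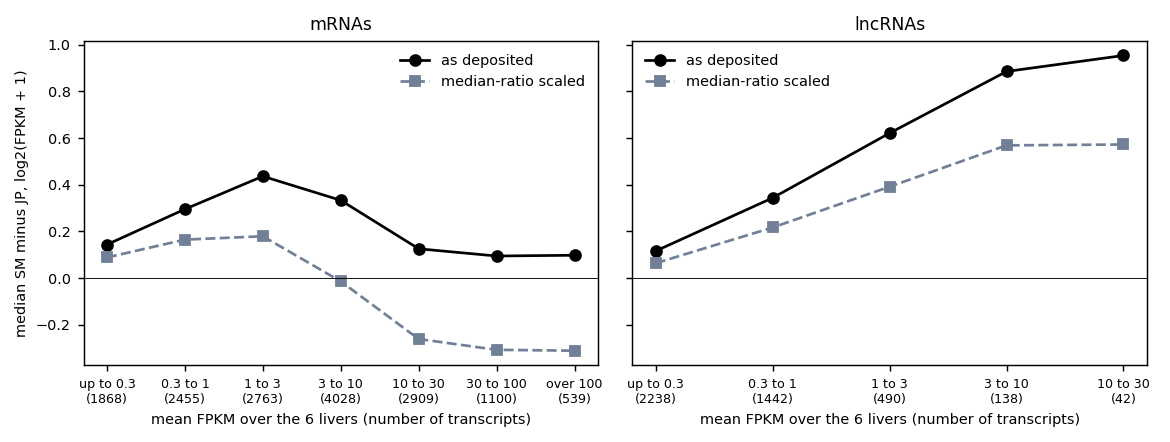
Median difference between the stages (SM minus JP, log2(FPKM + 1)) in classes of mean FPKM over the 6 livers, for mRNAs (left) and lncRNAs (right), with the number of transcripts in brackets. Classes with fewer than 20 transcripts are not drawn. Both are scaled with the factors from mRNAs. On these values the median of mRNAs runs from 0.18 at 1 to 3 FPKM to -0.31 above 100 FPKM. That of lncRNAs stays above 0 on the same factors, and it was not computed with factors from lncRNAs.

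The scaling lowers every mRNA at SM relative to JP, so the mRNAs called in the same direction on both scales are those higher on scaled values and those lower as deposited. Of these 2019 and 812 mRNAs, 784 and 267 differed at least 2-fold in both, 153 and 31 at least 4-fold and 27 and 3 at least 16-fold. All 6 values were apart in both scalings (no overlap of the stages) for 2004 of the 2019 and 790 of the 812, where 43.8% and 11.5% of all tested mRNAs were without overlap as deposited and 27.6% and 25.9% on scaled values. As these mRNAs were called from the same 6 values, their separation follows largely from the choice. Of the 153 mRNAs with at least a 4-fold rise, 34 had a mean above 100 FPKM at SM and 6 had one at JP, and 18 were below 0.1 in all 3 JP livers. Of the 31 with at least a 4-fold fall, 12 had a mean above 100 FPKM at JP and 3 at SM, and 1 was below 0.1 in all 3 SM livers.

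The mRNA that rose most, ENSGALT00000042470, had FPKM values of 4.65, 1.62 and 2.0 in the JP livers and of 40539, 35692 and 39677 in the SM livers. It went from a low level to one of the highest in the liver. The difference was 13.41 on the log2(FPKM + 1) scale (SE 0.27, limma adjusted p = 9.38e-08) and 13.05 on scaled values. ENSGALT00000043486 stood at 781, 695 and 643 at JP and at 91617, 71820 and 66802 at SM, a difference of 6.75 (SE 0.31, limma adjusted p = 9.66e-06). ENSGALT00000045308 stood at 635, 590 and 578 at JP and at 60796, 46452 and 41332 at SM, a difference of 6.34 (SE 0.29, limma adjusted p = 9.32e-06). These mRNAs were well expressed in the juvenile liver already, and they moved together from liver to liver, since the FPKM of ENSGALT00000045308 was 0.814 to 0.899 times that of ENSGALT00000043486 at JP and 0.619 to 0.664 times at SM. Both ratios differ by less within a stage than between the stages, so that ENSGALT00000043486 rose more. Whether these mRNAs share reads was not tested.

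Another set of mRNAs was close to or at 0 in the juvenile liver. ENSGALT00000048120 had 0.0243, 0.0334 and 0.0357 FPKM at JP and 128, 160 and 181 at SM, a difference of 7.24 (SE 0.15, limma adjusted p = 9.38e-08). ENSGALT00000061027 was listed at 0 in JP replicates 1 and 3, at 0.0139 in JP replicate 2, and at 46.7, 110 and 82.8 FPKM at SM. ENSGALT00000074622, ENSGALT00000081816, ENSGALT00000058871 and ENSGALT00000053380 followed it closely. Their FPKM at SM was 0.928 to 0.935, 0.889 to 0.910, 0.880 to 0.896 and 0.780 to 0.798 times that of ENSGALT00000061027, so these 5 transcripts have nearly the same profile. The tables used here list transcript identifiers without genes, and StringTie divides reads among overlapping or near-identical transcripts, so their separate levels are uncertain. Whether they share reads was not tested. ENSGALT00000061027 itself differed by 6.25 (SE 0.28, limma adjusted p = 8.66e-06), with the lowest of the SM values in replicate 1.

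ENSGALT00000056077 and ENSGALT00000060263 made up a further pair. The former had 11.9, 26.6 and 14.3 FPKM at JP and 1157, 1230 and 1456 at SM, a difference of 6.18 (SE 0.27, limma adjusted p = 6.88e-06). The latter was 0.906 to 1.06 times as high at JP and 0.897 to 0.912 times at SM. A transcript with the same profile, ENSGALT00000061733, lay at 0.529 to 0.540 times the level of ENSGALT00000056077 at SM. Whether these transcripts share reads was not tested. Each of the 10 mRNAs with the greatest rise kept its call in all alternatives run, those without 1 liver included. They were chosen among mRNAs without overlap that were also called after median-ratio scaling, so keeping the call in that alternative was fixed by the choice.

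**Figure D3:**
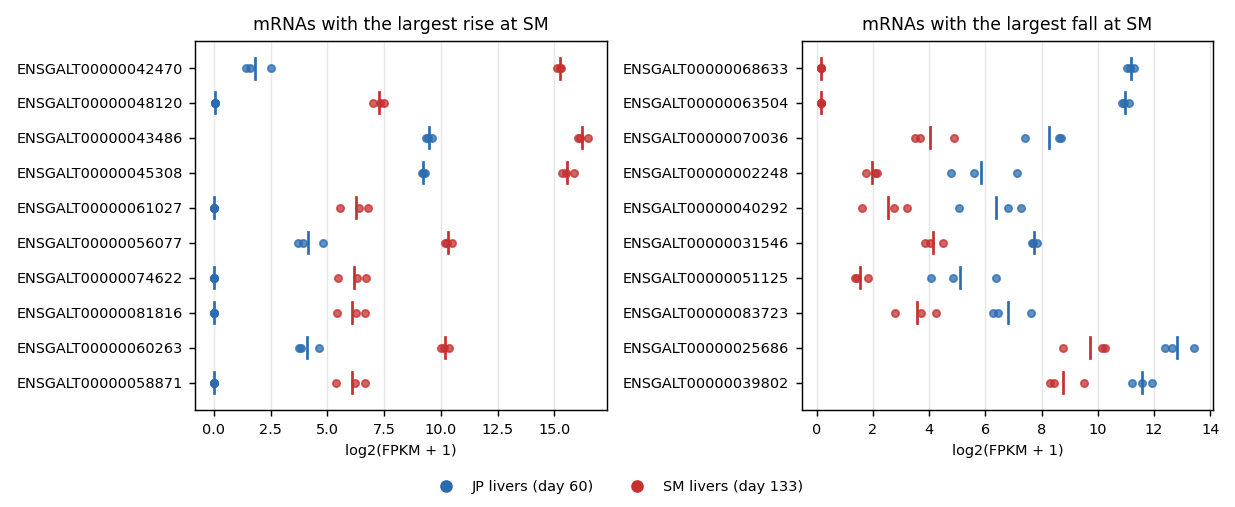
Level of the 10 mRNAs with the largest rise (left) and the 10 with the largest fall (right) in the 3 JP and 3 SM livers, as log2(FPKM + 1). Each dot is a liver and each vertical bar a stage mean. ENSGALT00000042470 lies 13.41 apart and ENSGALT00000068633 lies -11.02 apart. All transcripts shown were chosen among those without overlapping stages.

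Extremes also occurred among the mRNAs that fell. ENSGALT00000068633 had 2508, 2262 and 2122 FPKM at JP and 0.0961, 0.112 and 0.115 at SM, and ENSGALT00000063504 had 2196, 1965 and 1854 at JP and 0.0952, 0.111 and 0.116 at SM. Both were thus among the abundant mRNAs of the juvenile liver and near the limit of 0.1 in every mature liver. Whether these transcripts share reads was not tested, so their separate levels are uncertain. The differences were -11.02 and -10.82 (SE 0.11 in each, limma adjusted p = 7.45e-10 in each), and the next fall was far smaller. ENSGALT00000070036 had 170, 416 and 390 FPKM at JP and 28.8, 11.7 and 10.3 at SM, a difference of -4.22 (SE 0.43, limma adjusted p = 0.00034). ENSGALT00000031546 was the most even of the remaining falls, with 204, 225 and 199 FPKM at JP and 21.3, 15.2 and 13.6 at SM (-3.59, SE 0.17, limma adjusted p = 1.05e-05).

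Several falling mRNAs varied widely among the juvenile livers. ENSGALT00000002248 had 137, 47.4 and 26.6 FPKM at JP and 2.33, 3.38 and 3.19 at SM, and ENSGALT00000051125 followed it at JP with 0.587 to 0.599 times its level. ENSGALT00000040292 had 152, 110 and 32.7 FPKM at JP and 8.22, 2.05 and 5.76 at SM. In both, JP replicate 1 was the highest and JP replicate 3 the lowest juvenile liver. ENSGALT00000083723 had its highest juvenile value in JP replicate 3 instead, with 76.1, 87.1 and 198 FPKM at JP against 12, 5.93 and 17.8 at SM. The rule that picked these 4 required a call and stages without overlap, so their separation is not a result. The differences were -3.85, -3.57, -3.85 and -3.21 and the limma adjusted p-values 0.000879, 0.00123, 0.00162 and 0.00104 for ENSGALT00000002248, ENSGALT00000051125, ENSGALT00000040292 and ENSGALT00000083723.

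Falls were also found among the most abundant mRNAs. ENSGALT00000025686 had 11067, 5313 and 6303 FPKM at JP and 1205, 434 and 1119 at SM (-3.10, SE 0.45, limma adjusted p = 0.00138), and ENSGALT00000039802 had 2347, 3020 and 3870 at JP and 315, 349 and 720 at SM (-2.81, SE 0.34, limma adjusted p = 0.000683). ENSGALT00000085399 and ENSGALT00000038895, after ENSGALT00000069352 and ENSGALT00000028633 the next most abundant mRNAs at JP, had ratios to each other between 0.945 and 1.03 in the 6 livers, and their separate levels are uncertain for the same reason. ENSGALT00000085399 had 24884, 19891 and 18214 FPKM at JP and 9465, 5035 and 4607 at SM, a difference of -1.79 (SE 0.42, limma adjusted p = 0.0109). It was no longer called without SM replicate 2 (-1.66, limma adjusted p = 0.0536) or without SM replicate 3 (-1.59, limma adjusted p = 0.0542). ENSGALT00000005545 fell as well, from 9502, 11994 and 10902 FPKM at JP to 4778, 3237 and 4438 at SM (-1.39, SE 0.31, limma adjusted p = 0.00923).

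The most abundant juvenile mRNA showed no difference that passed the test. ENSGALT00000069352 had 66478, 68897 and 79287 FPKM at JP and 53563, 67248 and 58456 at SM, so that the stages overlapped (-0.26, SE 0.67, limma adjusted p = 0.775). The next, ENSGALT00000028633, had 30238, 30040 and 35577 at JP and 63324, 75475 and 63858 at SM without overlap. Its difference of 1.08 (SE 0.59) did not pass the test with limma's trend of the variance on the mean (limma adjusted p = 0.168), but passed it without the trend (SE 0.13, limma adjusted p = 0.000894) and when only mRNAs with an FPKM above 1 in at least 3 livers were fitted (limma adjusted p = 0.0229). On scaled values its difference was 0.67.

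Zeros were more common at JP over all 18260 mRNAs and 16930 lncRNAs. A liver had 2037 ± 61.1 mRNAs and 10015 ± 252 lncRNAs listed at 0 at JP, against 1058 ± 47.6 and 8010 ± 290 at SM (SD, n = 3). Transcripts listed at 0 in all livers of one stage and above 0.1 FPKM in all livers of the other were also far more numerous at SM. There were 126 such mRNAs at SM and 9 at JP, and 187 such lncRNAs at SM and 21 at JP. With a level above 1 FPKM in place of 0.1, 18 and 2 mRNAs and 16 and 0 lncRNAs remained. The median of the mean SM level of the 126 mRNAs was 0.430 FPKM, so most of them were low. The counts rest on zeros. Leaving out a liver relaxes the rule, so a count can then only stay or rise. For mRNAs at SM it was 202, 203 and 200 without JP replicate 1, JP replicate 2 and SM replicate 1. Over all 6 livers left out in turn it was between 173 and 203.

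The highest of the mRNAs listed at 0 in the juvenile liver, ENSGALT00000053984, had 52.0, 76.1 and 66.2 FPKM at SM (6.02 on the log2(FPKM + 1) scale, SE 0.16, limma adjusted p = 5.66e-07). ENSGALT00000065214 had 13.3, 15 and 12.8 FPKM at SM, with little spread among the livers (limma adjusted p = 2.59e-06, difference 3.87). In the other direction ENSGALT00000065744 had 4.54, 2.69 and 4.60 FPKM at JP and was listed at 0 in all SM livers (-2.28, SE 0.18, limma adjusted p = 0.00011). The other 2 named juvenile mRNAs of this kind were each carried by 1 liver. ENSGALT00000087374 had 0.550, 0.436 and 18.5 FPKM at JP (limma adjusted p = 0.125, difference -1.81) and ENSGALT00000003983 had 0.206, 10.3 and 0.132 (limma adjusted p = 0.197, difference -1.31), and neither passed the test.

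Among the lncRNAs tested, 641 (14.7%) were called, 600 (13.7%) higher and 41 (0.939%) lower at SM. After scaling with the factors from mRNAs, 388 (8.88%) were called, 328 (7.51%) higher and 60 (1.37%) lower. With factors from the lncRNAs themselves, 230 were called, 128 higher and 102 lower, so the share of calls that were higher at SM was 93.6%, 84.5% and 55.7% in turn, and the excess of higher lncRNAs depends on the scale. Factors from lncRNAs give each liver the same median ratio of lncRNAs, so the more even split with them follows largely from the method. As deposited, the number of calls was lower with each of the 6 livers left out, between 341 (without JP replicate 1) and 626 (without SM replicate 1). Without JP replicate 3 it was 358. A liver less leaves 2 in a stage and thus less power, which cannot be told apart from a dependence on single livers. The count of 388 on mRNA-scaled values fell to between 143 and 254 without any single one of the 6 livers, to 97 without a filter on low values and to 84 with the replicate number as a block. Called in the same direction on deposited and mRNA-scaled values were 328 higher and 38 lower lncRNAs, of which 122 and 17 differed at least 2-fold, 14 and 5 at least 4-fold, and 1 and 0 at least 16-fold. None of these 328 and 38 had overlapping stages, where 42.7% and 4.24% of the tested lncRNAs were without overlap as deposited, higher and lower at SM, and 33.8% and 7.12% on mRNA-scaled values. The calls were made from the same 6 values, so this separation follows largely from the choice and is not a result.

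Of the 20 lncRNAs named below that were tested, 10 lost their call when no filter on low values was applied. TCONS_00074302 rose most among the lncRNAs. It was listed at 0 in all 3 JP livers and had 115, 53.6 and 55.8 FPKM at SM, a difference of 6.15 on the log2(FPKM + 1) scale (SE 0.32, limma adjusted p = 0.000337). TCONS_00074303 and TCONS_00074300, next to it in the numbering of the assembly, were also listed at 0 at JP and had 39.8, 5.51 and 16.6 and 35.0, 3.25 and 23.1 FPKM at SM. In all 3, SM replicate 1 was the highest and SM replicate 2 the lowest liver. TCONS_00074304, of the same run of numbers, was the most abundant lncRNA at SM, with 135, 50.5 and 184 FPKM at JP and 421, 756 and 417 at SM. Its difference of 2.23 (SE 0.47, limma adjusted p = 0.0179) did not pass the test on scaled values (1.82, limma adjusted p = 0.0536) or without SM replicate 2 (1.95, limma adjusted p = 0.0533). In TCONS_00074304, SM replicate 2 was the highest liver and not the lowest. Whether the lncRNAs of this run of numbers share reads was not tested, so their separate levels are uncertain.

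Further lncRNAs rose from 0 to lower levels. TCONS_00222423 was listed at 0 in the JP livers and had 8.19, 7.26 and 7.06 FPKM at SM (3.09, SE 0.15, limma adjusted p = 0.000337), and TCONS_00216801 was listed at 0 at JP and had 13.0, 8.06 and 19.5 at SM (3.78, SE 0.30, limma adjusted p = 0.0015). TCONS_00155809 was less even, with 1.74, 3.13 and 0 FPKM at JP and 27.0, 43.9 and 6.74 at SM (3.25, SE 0.74, limma adjusted p = 0.021). It was not called without JP replicate 1, JP replicate 3, SM replicate 1 or SM replicate 2 (limma adjusted p between 0.0598 and 0.0665, differences of 3.39, 2.67, 3.05 and 2.71).

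Among the abundant lncRNAs, TCONS_00226697 had 93.7, 76.9 and 167 FPKM at JP and 469, 319 and 323 at SM (1.77, SE 0.30, limma adjusted p = 0.0106), and it passed the test on mRNA-scaled values as well (1.36, limma adjusted p = 0.0419) but was not called with factors from lncRNAs (0.83). TCONS_00074843 had 199, 174 and 173 FPKM at JP and 430, 329 and 390 at SM, and its difference of 1.06 (SE 0.15, limma adjusted p = 0.00706) missed the threshold on scaled values (0.65, limma adjusted p = 0.0547). TCONS_00045205 went the other way, from 143, 126 and 118 FPKM at JP to 87.2, 86.3 and 63.7 at SM (-0.71, SE 0.19, limma adjusted p = 0.0325). Its call was lost without JP replicate 1, JP replicate 2, JP replicate 3 or SM replicate 3, with limma adjusted p-values of 0.105, 0.0756, 0.0669 and 0.0567 and differences of -0.64, -0.73, -0.78 and -0.57.

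**Figure D4:**
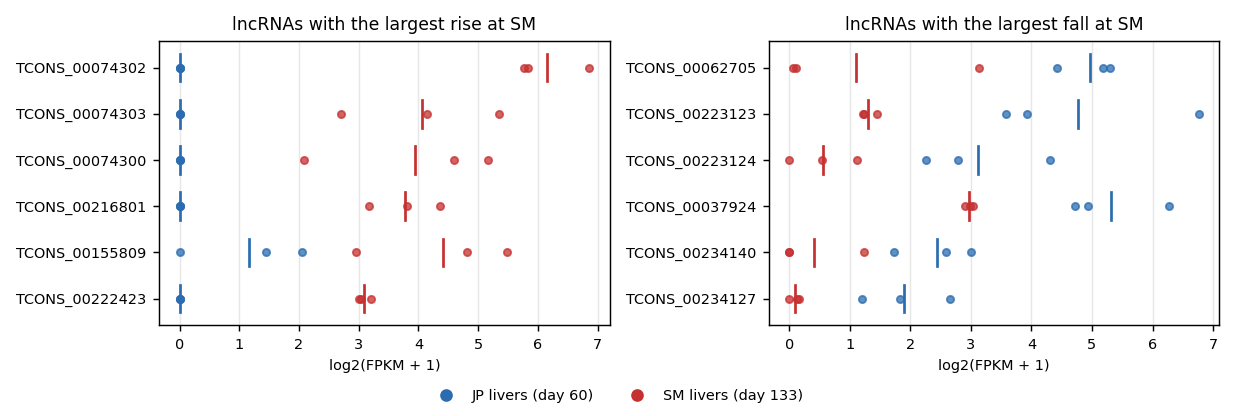
Level of the 6 lncRNAs with the largest rise (left) and the 6 with the largest fall (right) in the 3 JP and 3 SM livers, as log2(FPKM + 1). Each dot is a liver and each vertical bar a stage mean. 5 of the 6 rising lncRNAs are listed at 0 in every JP liver, and among the falling ones SM replicate 3 stands apart for TCONS_00062705 and SM replicate 2 for TCONS_00234140.

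The lncRNAs that fell were more scattered. TCONS_00062705 had 20.4, 38.5 and 35.4 FPKM at JP and 0.0752, 0.0424 and 7.82 at SM (-3.87, SE 0.81, limma adjusted p = 0.0168), and it was not called without JP replicate 2 (-3.70, limma adjusted p = 0.0557) or JP replicate 3 (-3.76, limma adjusted p = 0.0595). TCONS_00223123 had 108, 11 and 14.3 FPKM at JP and 1.74, 1.35 and 1.32 at SM (-3.46, SE 0.77, limma adjusted p = 0.0198), and its neighbour in the numbering, TCONS_00223124, had 18.7, 5.94 and 3.81 at JP and 0.455, 0 and 1.17 at SM. JP replicate 1 was the highest liver in both. TCONS_00223123 was not called without SM replicate 2 (-3.43, limma adjusted p = 0.0573) or SM replicate 3 (-3.42, limma adjusted p = 0.0570), and TCONS_00223124 (-2.57, SE 0.53, limma adjusted p = 0.0169) not without SM replicate 2 (-2.29, limma adjusted p = 0.0525).

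TCONS_00234140 and TCONS_00234127 shared another pattern, with JP replicate 2 highest in both. The first had 2.32, 6.99 and 5.05 FPKM at JP and was listed at 0, 1.35 and 0 at SM (-2.03, SE 0.43, limma adjusted p = 0.0181). It was not called without JP replicate 2, JP replicate 3, SM replicate 1 or SM replicate 3 (limma adjusted p between 0.0517 and 0.0624, differences of -1.75, -1.95, -1.83 and -1.83). The second had 1.29, 5.32 and 2.56 at JP and 0, 0.0943 and 0.116 at SM (-1.80, SE 0.34, limma adjusted p = 0.0128). Of the lncRNAs listed at 0 in all SM livers, TCONS_00215608 had 2.18, 0.581 and 1.57 FPKM at JP and was called (-1.23, limma adjusted p = 0.0144), although not without JP replicate 3 (-1.17, limma adjusted p = 0.0556). TCONS_00062742, with 6.83, 3.30 and 0.233 FPKM at JP, was not called (-1.79, limma adjusted p = 0.0584) except without JP replicate 3 (-2.54, limma adjusted p = 0.0160).

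The study designed PCR primers for 5 lncRNAs, and those of 3 of them are shown because they are the sequences by which these assembled transcripts can be found again. They are given 5′ to 3′ with no base set apart in capitals, first for an lncRNA that fell, then for one seen in only some juvenile livers and for one that was higher at SM without passing the test.
TCONS_00037924 forward: ttaacaagaagggaaatgtggactg
TCONS_00037924 reverse: caattccttttgtttcctcttctga
TCONS_00220501 forward: tcgtgaatggcagcaagaagagac
TCONS_00220501 reverse: tcctgctccttcctgcactcc
TCONS_00083873 forward: aggatcagctccgtctggtg
TCONS_00083873 reverse: tgtgccaagaccacccagta

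TCONS_00037924 had 29.4, 76.5 and 25.3 FPKM at JP and 6.92, 6.45 and 7.21 at SM. Every mature liver was below every juvenile one, and the mature livers were the more alike. The difference was -2.33 (SE 0.41, limma adjusted p = 0.0111) and -2.71 on scaled values (limma adjusted p = 0.0105). TCONS_00220501 had 17.9 and 22.6 FPKM in JP replicates 1 and 2 and was listed at 0 in JP replicate 3 and in all SM livers, so it did not enter the test. At PL it had 20.5, 26.1 and 29.8 FPKM, and at BP 52.4, 0 and 0. TCONS_00083873 had 0.0964, 0.307 and 0.0409 FPKM at JP and 0.395, 0.584 and 1.06 at SM without overlap. Its difference of 0.54 (SE 0.17) missed the threshold (limma adjusted p = 0.0546) but passed it without SM replicate 1 (0.66, limma adjusted p = 0.0442). TCONS_00155619 overlapped between the stages (0.19, SE 0.16, limma adjusted p = 0.405), and TCONS_00179354 was too low at both stages to be tested, with at most 0.181 FPKM.

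The livers at PL and BP did not enter the fit by which these transcripts were called, and they show where the transcripts stood in older hens. ENSGALT00000042470 had 3.68, 8.95 and 12.2 FPKM at PL and 31576, 30891 and 36977 at BP, so PL lay near JP and BP near SM. ENSGALT00000043486 had 1202, 1290 and 1655 FPKM at PL and 102216, 118758 and 126861 at BP, the latter above every SM liver. ENSGALT00000048120 was below 0.1 in all PL livers and had 126, 73.0 and 66.5 FPKM at BP. The mRNAs of the second set were not as even at BP, where ENSGALT00000061027 had 40.4, 3.09 and 2.53 FPKM and was listed at 0 in all PL livers. ENSGALT00000056077 departed from this order, since it had 336, 1016 and 792 FPKM at PL, between JP and SM.

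Of the falling mRNAs, ENSGALT00000063504 had 3089, 3341 and 2035 FPKM at PL and 0.111, 0.111 and 0.102 at BP. ENSGALT00000068633 had 3360 and 3725 FPKM in PL replicates 1 and 2 but 0.124 in PL replicate 3, where ENSGALT00000063504 was still at 2035. The pair was therefore not tied in every liver. ENSGALT00000083723, with 134, 44.2 and 110 FPKM at PL, and ENSGALT00000070036, with 66.8, 46.4 and 352, were also higher at PL than in any SM liver. ENSGALT00000002248, in contrast, had 0.582, 1.69 and 2.27 FPKM at PL and 0.876, 2.18 and 1.52 at BP, below all JP livers. ENSGALT00000031546 had 17.6, 15.5 and 31.0 at PL and 137, 49.7 and 35.9 at BP, and ENSGALT00000085399 had 4239, 4514 and 6200 at PL and 5468, 3291 and 2847 at BP.

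**Figure D5:**
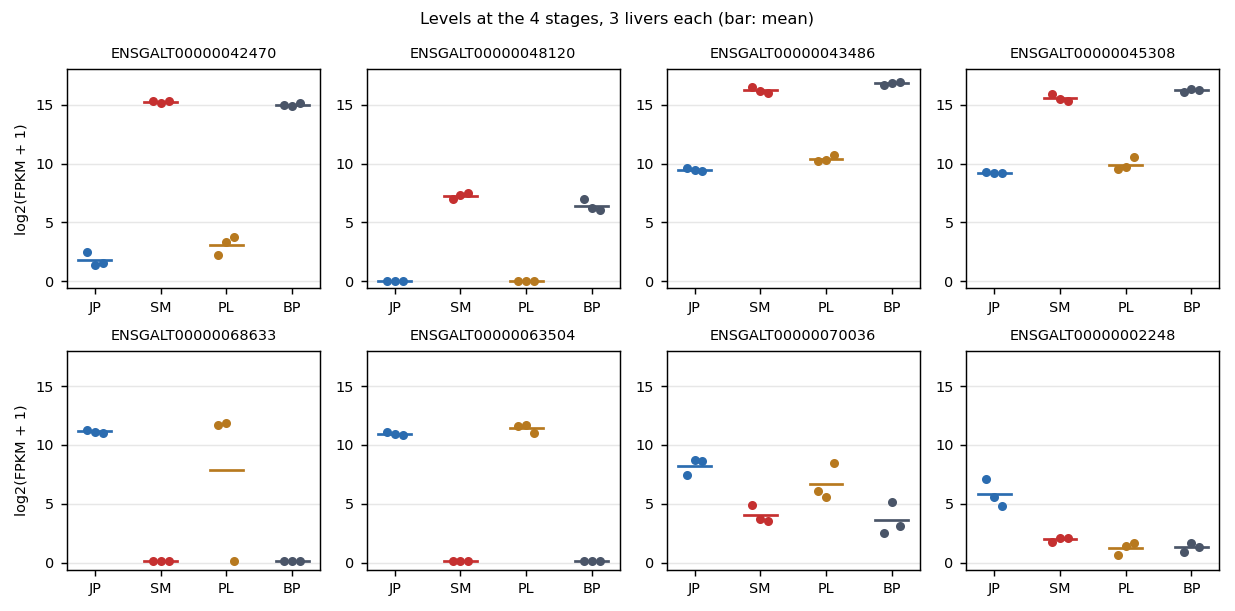
Level of the 4 mRNAs with the largest rise (top) and the 4 with the largest fall (bottom) at the 4 stages JP, SM, PL and BP, as log2(FPKM + 1), with 3 livers a stage and the mean as a bar. The rising mRNAs are higher at SM and BP than at JP and PL, ENSGALT00000068633 is split at PL by replicate 3 with 0.124 FPKM, and ENSGALT00000002248 stays low after JP.

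Counted over all calls, BP lay above PL in the mean for 86.1% of the mRNAs called higher at SM and for 32.6% of those called lower, against 71.2% of all tested mRNAs. On scaled values these shares were 77.6%, 19.8% and 50.9%. Of the 153 mRNAs with at least a 4-fold rise in both scalings, 141 were higher at BP than at PL. As deposited, 122 of these 153 were higher and 3 lower at BP without overlap. Of the 31 with at least a 4-fold fall, 9 were higher at BP, and 3 were higher and 11 lower without overlap. Among all tested mRNAs, 32.2% were higher and 6.38% lower at BP without overlap as deposited. For lncRNAs BP lay above PL for 92.0% of those called higher and 51.2% of those called lower, against 76.4% of all tested, and for 87.2%, 38.3% and 66.8% on scaled values. The mapped share of reads separated the PL from the BP libraries as it did JP from SM, so this order of the stages and that property of the libraries cannot be told apart.

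Of the 126 mRNAs listed at 0 at JP and above 0.1 FPKM at SM, 76 (60.3%) were also listed at 0 in all PL livers, against 1.16% of all tested mRNAs, and 68 (54.0%) were above 0.1 FPKM in all BP livers, against 91.1%. Of the 187 such lncRNAs, 93 (49.7%) were listed at 0 in all PL livers, against 7.46% of all tested lncRNAs, and 76 (40.6%) were above 0.1 in all BP livers, against 59.7%. These transcripts were low, and no test was made of these shares. The 126 mRNAs and 187 lncRNAs were chosen for zeros in all JP livers, and the tested transcripts set beside them were not. The excess of zeros at PL thus cannot be told apart from this choice. Among tested transcripts with a mean SM level up to 1 FPKM, 3.67% of mRNAs and 8.61% of lncRNAs were listed at 0 in all PL livers. Above 0.1 FPKM in all BP livers were 66.4% of these mRNAs and 51.5% of these lncRNAs. TCONS_00074302 was listed at 0 in all PL livers and had 188, 236 and 260 FPKM at BP. TCONS_00074300 was low at BP, with 0.873, 0 and 0 FPKM. Among lncRNAs with primers, TCONS_00155619 had 3.61, 2.72 and 6.03 FPKM at PL and 1.66, 3.33 and 2.45 at BP, above all 6 livers compared here.

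Livers of the same stage were more alike than livers of different stages. Spearman's rho over all mRNAs of the table averaged 0.971 among JP livers, 0.974 among SM livers and 0.932 between them, and over lncRNAs 0.605, 0.637 and 0.534. The difference of within-stage and between-stage means was 0.0405 for mRNAs and 0.0869 for lncRNAs. Both were the largest of the 10 possible partitions of the 6 livers into 2 groups of 3 (p = 0.1, one-sided exact permutation test, the smallest it can give). As deposited, the median SD of an mRNA among the 3 livers of a stage was 0.17 at JP and 0.15 at SM on the log2(FPKM + 1) scale, and that of a lncRNA 0.12 and 0.15. On values scaled with the factors from mRNAs it was 0.165 and 0.139 for mRNAs and 0.133 and 0.131 for lncRNAs. The larger spread of lncRNAs at SM was thus seen only as deposited.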

How the data were processed

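Libraries were strand-specific and depleted of ribosomal RNA. According to the methods and processing notes, the authors filtered the reads, mapped them to the chicken genome (Gallus_gallus-5.0) with HISAT2 2.1.0, assembled transcripts with StringTie 1.3.3 and deposited FPKM values, 1 table for mRNAs and 1 for lncRNAs, with 1 column for each liver and no pooling (0 columns were left out). The authors tested read counts with edgeR. Only FPKM values were used here, so no count model was applied, and depth enters only through the ratios of low values, with no counting interval. FPKM is relative to the mapped fragments of a library, so a difference between libraries in composition or mapping can move all values.

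The 3 JP and 3 SM livers were compared with limma 3.58.1 in R 4.3.3 on log2(FPKM + 1), with a mean per stage, 4 residual degrees of freedom and a variance trend, separately for mRNAs and lncRNAs, with Benjamini-Hochberg adjustment over all transcripts tested. A log2 difference is SM minus JP and understates changes of low transcripts. Each replicate was a separate hen. Other statistics and figures were made in Python 3.11.15 with numpy 2.4.6, pandas 2.3.3 and matplotlib 3.10.9. The scripts were tested on simulated livers.

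Named mRNAs were the 10 greatest rises and 10 greatest falls called in both scalings without overlap, the 5 most abundant at each stage, and the 3 highest of those listed at 0 at the other stage. For lncRNAs the numbers were 6, 6, 3 and 2, with the 5 for which primers were listed. ENSGALT00000061733 and ENSGALT00000042563 were added after their values were seen. The comparison, rules and lists were chosen with earlier results of these data known. Lists of genes by symbol and of cell type markers were not used here. The gene reference used held no Ensembl identifiers, so 0 mRNA identifiers matched a symbol. Alternatives were another added value, no and a stricter filter, scaling by median ratios or summed FPKM, no trend, all 12 livers, a block for the replicate number, and leaving out each liver in turn. Scaling with factors from lncRNAs and alternatives run on top of median-ratio scaling were chosen after seeing the data.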

Additional observations from a re-analysis of the deposited data

How the results depend on the processing

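Depth is not known per transcript, 3 livers a stage cannot pass an exact test of a single value, and FPKM gives only relative levels, which limits statements on direction for mRNAs of small difference and for lncRNAs. Called mRNAs higher at SM numbered 2019 with median-ratio scaling and 2352 with scaling to the summed FPKM, and lower ones 2087 and 2247. lncRNA calls were 1345 (1241 higher, 104 lower) with 0.1 added before the logarithm, 278 (269 and 9) without a filter, 397 (379 and 18) with FPKM above 1 in at least 3 livers, 388 (328 higher) with median-ratio scaling and 230 (128 and 102) with factors from lncRNAs, and 86 were lower with scaling to the summed FPKM. After median-ratio scaling lncRNA calls were 858 with 0.1 added and 97 without a filter. The cause of these shifts was not tested.

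The replicate numbers did not pair the livers (correlations of same-numbered deviations between -0.06 and 0.08). With the replicate number as a block 4557 mRNAs and 512 lncRNAs were called, and after median-ratio scaling 4129 and 84. ENSGALT00000085399, ENSGALT00000038895 and ENSGALT00000005545 were not called with the block.

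Without 1 liver, which leaves 2 in a stage, called mRNAs numbered 4239 to 4844 (3392 to 4101 higher, 696 to 879 lower), and after scaling 3758 to 4186 (1855 to 2041 higher, 1888 to 2145 lower). lncRNAs numbered 341 to 626 (313 to 605 higher, 21 to 34 lower) and after scaling 143 to 254, and each of the 6 omissions lowered the latter count by more than 1.5 times. JP replicate 1 (341) and JP replicate 3 (358) lowered the former so far, and SM replicates 1 and 2 (21 each) the number of lower ones. Of 31 named mRNAs tested 5 changed their call in any alternative, and of 20 named lncRNAs 14 did, with no reversal of direction (0 reversed). Without a filter on low values, 10 of these 20 lncRNAs lost their call.

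The difference of within-stage and between-stage correlation was 0.0458 with Pearson's r and 0.0914 with the stricter filter for mRNAs and 0.327 with the stricter filter for lncRNAs, and without 1 liver 0.0393 to 0.0424 and 0.0776 to 0.0996. The share of summed FPKM was higher at SM by 10.8 percentage points in the 10 most abundant mRNAs (9.77 to 12.2 without 1 liver) and by 5.39 in the 100 most abundant. Without 1 liver, the FPKM sums differed by 161623 to 181316 (mRNAs) and 3489 to 3738 (lncRNAs), and the numbers above 0.1 FPKM by 1362 to 1585 and 1280 to 1639. Transcripts listed at 0 in one stage numbered 18 (SM) and 2 (JP) mRNAs and 16 and 0 lncRNAs with a level above 1 FPKM. Without 1 liver they numbered 173 to 203 and 12 to 17 mRNAs and 253 to 307 and 34 to 52 lncRNAs, where SM replicates 1 and 2 (307 and 288) moved the lncRNAs of SM by more than 1.5 times, each liver those of JP, and JP replicate 1, SM replicate 1, SM replicate 2 and SM replicate 3 (17, 16, 15 and 16) the mRNAs of JP. With a liver less the rule is laxer, so these counts could only stay or rise.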
